A study of Rattus norvegicus with 9 samples.

Results

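Transcripts of 9 synaptic vesicle and release genes (Syn1, Syn2, Syp, Snap25, Syt1, Vamp2, Stx1a, Rab3a and Sv2a) were measured in rat proximal colon by every probe set on the Affymetrix rat U34A array whose only gene symbol in the platform annotation was 1 of the 9. These were 16 of 8799 probe sets. All rats were male Sprague Dawley offspring weaned to the purified AIN-93G diet of their mothers, and all were injected subcutaneously with 15 mg/kg azoxymethane (AOM), a colon carcinogen, once a week for 2 weeks from 90 days of age. The protein of the diet was soy protein isolate (SPI), whey protein hydrolysate (WPH) or, as the control, casein (CAS), so that no group was free of carcinogen. Non-tumor tissue, mucosa together with smooth muscle, was taken 40 weeks after AOM, when some rats of each group carried tumors. Each diet was represented by 1 pool of RNA from 7 rats, and 3 cRNA targets made in parallel from it were hybridized to 3 arrays, so the spread between arrays is technical and p-values compare pools and not rats.

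Neurotransmitter is stored in small vesicles at nerve endings. Synapsins tether the vesicles in reserve, Rab3a guides them to the release site, and the SNARE proteins synaptobrevin (Vamp2), syntaxin (Stx1a) and Snap25 zip together to fuse the vesicle with the cell membrane when synaptotagmin (Syt1) binds calcium. In the colon these proteins are known from the enteric nervous system, whose ganglia lie between the muscle layers and beneath the mucosa, and several of them also serve hormone release in enteroendocrine cells.

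A promoter was at hand for 8 of the 9 genes in RefSeq sequence (build GRCr8), taken as 250 bases before to 50 bases after the gene start. The bases before the start are printed 5′ to 3′ for 4 genes, Syn2, Syn1, Syp and Vamp2, because the first 3 separated all 3 diets array by array and 1 Vamp2 probe set separated none. They lie at chr4:149858669-149858918 (plus strand, Syn2), chrX:3725495-3725744 (plus strand, Syn1), chrX:17536450-17536699 (minus strand, Syp) and chr10:54292539-54292788 (plus strand, Vamp2). Capitals mark matches on either strand to the GC box GGGCGG and to TGACG, the core of the cyclic AMP response element.
Syn2: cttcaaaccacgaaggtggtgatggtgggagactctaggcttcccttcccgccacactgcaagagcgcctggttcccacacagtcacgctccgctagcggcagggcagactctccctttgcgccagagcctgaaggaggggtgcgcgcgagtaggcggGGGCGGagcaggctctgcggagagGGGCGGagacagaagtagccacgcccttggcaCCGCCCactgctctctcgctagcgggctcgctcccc
Syn1: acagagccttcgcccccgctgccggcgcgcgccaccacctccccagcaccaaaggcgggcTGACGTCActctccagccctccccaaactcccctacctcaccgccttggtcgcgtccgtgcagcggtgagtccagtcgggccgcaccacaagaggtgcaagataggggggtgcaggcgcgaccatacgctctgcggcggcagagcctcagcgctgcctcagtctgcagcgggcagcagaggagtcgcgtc
Syp: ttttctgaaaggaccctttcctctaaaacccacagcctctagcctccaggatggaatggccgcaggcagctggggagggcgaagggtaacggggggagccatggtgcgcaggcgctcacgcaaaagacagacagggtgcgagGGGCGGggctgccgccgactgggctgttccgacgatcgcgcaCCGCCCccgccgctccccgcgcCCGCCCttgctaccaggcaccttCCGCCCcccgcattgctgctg
Vamp2: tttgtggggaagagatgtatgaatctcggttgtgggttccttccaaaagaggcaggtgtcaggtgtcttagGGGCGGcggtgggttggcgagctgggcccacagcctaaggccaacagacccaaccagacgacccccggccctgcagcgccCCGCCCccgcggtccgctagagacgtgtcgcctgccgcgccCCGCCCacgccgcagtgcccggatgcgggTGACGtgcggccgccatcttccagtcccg
The GC box was found in the full 300-base window of 7 of the 8 genes, all but Sv2a, against 33.1% of 33469 rat promoters of the same length. Syn1 has its GC box only in the 50 bases after the start, which are not printed. TGACG was found in 3 of 8 (Syn1, Vamp2 and Rab3a) against 21.2% of all, and TATAAA in 0 of 8 against 14.2%. In Syn1 the matches to TGACG on both strands overlap in TGACGTCA. GC content was 60.0 to 71.0% in these windows (median 67.3%), against a median of 51.7% over all promoters, so the members share GC-rich starts. These matches are letters in a window and say nothing of binding.

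Values are MAS 5.0 signals, the brightness of a probe set on a linear scale after each array was scaled to an average of 500. Signals under 100 are called dim here. On each array 58.7 to 60.3% of probe sets reached 100 and the median signal was 149 to 165, so no array stood apart in these measures. Of the 16 probe sets, 11 from 8 genes reached a mean of 100 in 1 diet or more and entered the limma test with 5606 such probe sets in all. The other 5 were dim in all diets on average, and they included the only probe set for Syt1. Rab3a reached 100 only through SPI and WPH, so that its test favours a difference from CAS. Fold changes are ratios of diet means, log2 changes are those of the fit, given ± SE, and every adjusted p was adjusted over all probe sets tested.

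By mean signal, most of these probe sets were highest in WPH, lowest in CAS and in between in SPI. The means stood in the order CAS, SPI, WPH, rising, in 15 of the 16 probe sets, against 29.6% of 8740 probe sets other than controls, and 0 of the 16 had the opposite order (19.8% of all). All 3 diets were fully separated in that order, array by array, for 4 of 16 (Syn1, Syp and 2 for Syn2), against 5.27% of all. Relative to CAS, 10 of the 11 tested probe sets rose in WPH and 1, for Syn2, rose in SPI. Relative to WPH, 5 of the 11 fell in SPI.

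**Figure D1:**
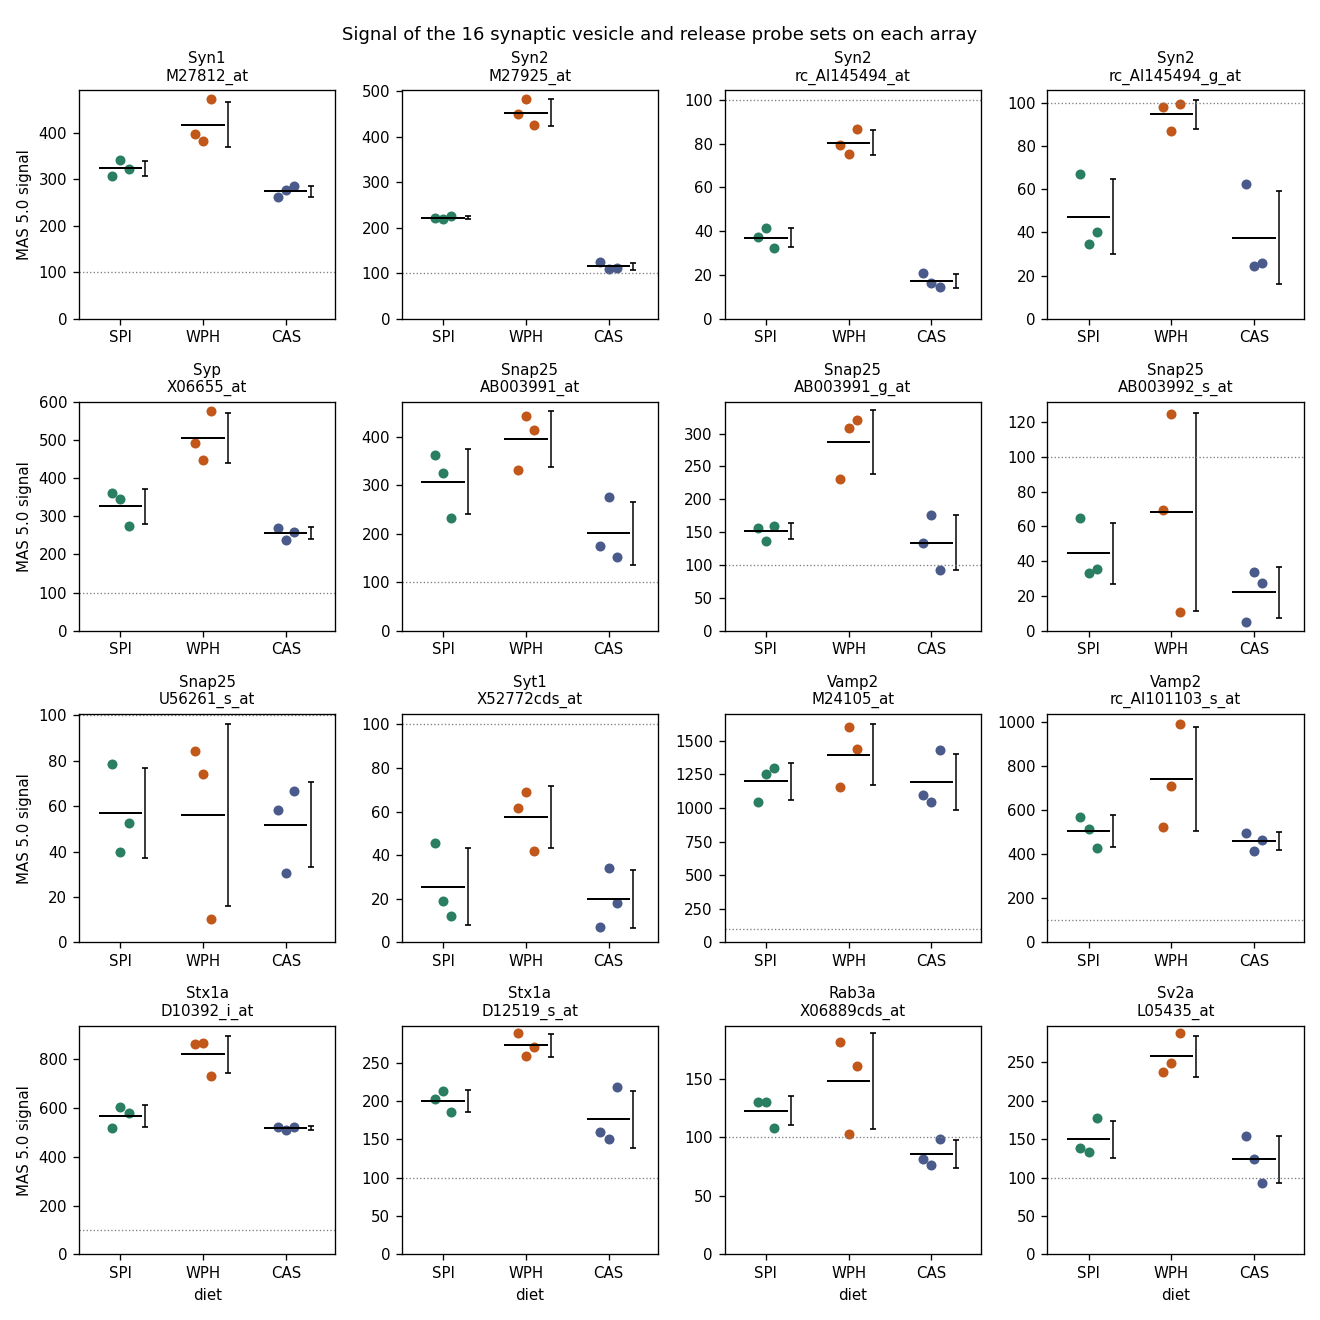
MAS 5.0 signal (vertical axis, linear from 0, its own scale in each panel) of the 16 probe sets on each of the 3 arrays of SPI, WPH and CAS; points are arrays, horizontal lines are diet means, bars beside them are ± 1 SD and the dotted line marks a signal of 100. Syn2 (M27925_at) lies between 426 and 483 in WPH, at 219 to 226 in SPI and at 109 to 124 in CAS, whereas the 3 diets overlap for Vamp2 (M24105_at).

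The synapsins, which coat the vesicle and hold it to the cytoskeleton, gave both the widest and 1 of the narrower gaps. Syn2 (M27925_at) had signals of 222.2, 219.0 and 225.6 in SPI, of 451.1, 483.4 and 425.7 in WPH and of 124.2, 108.9 and 111.8 in CAS. No array of 1 diet overlapped another diet. WPH was 3.94-fold of CAS (log2 change 1.98 ± 0.14, adjusted p = 8.68e-07), SPI was 1.93-fold of CAS (0.95 ± 0.14, adjusted p = 0.000553), and SPI was below WPH (-1.03 ± 0.14, adjusted p = 0.00036). The other 2 probe sets for Syn2 were dim, and no fold is given for them. The first of them (rc_AI145494_at) had 37.5, 41.3 and 32.4 in SPI, 79.3, 75.3 and 86.8 in WPH and 20.9, 16.3 and 14.7 in CAS, again with no overlap. The second (rc_AI145494_g_at) had 66.9, 34.8 and 40.0 in SPI, 97.8, 86.7 and 99.1 in WPH and 62.2, 24.6 and 25.6 in CAS, where SPI and CAS overlapped and WPH lay above both. In a fit with no filter on dim probe sets these 2 rose in WPH relative to CAS with adjusted p of 0.000457 and 0.0262, and the first also in SPI (adjusted p = 0.0493).

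Syn1 (M27812_at) had 306.8, 340.4 and 322.8 in SPI, 396.9, 383.0 and 472.4 in WPH and 261.4, 275.8 and 285.4 in CAS. The diets did not overlap, but the steps were small beside those of Syn2. WPH was 1.52-fold of CAS (log2 change 0.60 ± 0.13, adjusted p = 0.00303), while SPI against CAS (0.24 ± 0.13, adjusted p = 0.23) and SPI against WPH (-0.36 ± 0.13, adjusted p = 0.0716) did not pass.

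Among the other proteins of the vesicle membrane, synaptophysin (Syp, X06655_at), an abundant vesicle protein widely used as a marker of nerve endings, had 360.4, 344.8 and 273.7 in SPI, 492.7, 447.4 and 576.3 in WPH and 270.1, 238.3 and 258.7 in CAS. The third SPI array came within a few units of the highest CAS array without overlapping it. WPH was 1.98-fold of CAS (log2 change 0.98 ± 0.15, adjusted p = 0.000324), SPI fell relative to WPH (-0.63 ± 0.15, adjusted p = 0.0121), and SPI was 1.28-fold of CAS (adjusted p = 0.133). Without the third SPI array the SPI to WPH difference had an adjusted p of 0.0508.

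Sv2a (L05435_at), a transporter-like vesicle glycoprotein and the target of the drug levetiracetam, had 138.7, 133.1 and 177.2 in SPI, 237.4, 248.8 and 287.9 in WPH and 154.0, 124.5 and 92.3 in CAS. Every WPH array lay above every other array, and SPI overlapped CAS. WPH was 2.09-fold of CAS (log2 change 1.09 ± 0.22, adjusted p = 0.0021) and SPI fell relative to WPH (-0.79 ± 0.22, adjusted p = 0.0265), a call lost when 1 of 4 arrays was left out (adjusted p = 0.0621 to 0.0872 without SPI 1, SPI 2, WPH 2 or WPH 3). SPI against CAS gave 1.21-fold (adjusted p = 0.394). Synaptotagmin 1 (Syt1, X52772cds_at), the calcium sensor, was dim throughout, with 45.4, 19.1 and 11.9 in SPI, 61.6, 69.0 and 41.9 in WPH and 7.3, 33.9 and 18.2 in CAS. WPH lay above CAS without overlap, but the log2 change of 1.77 ± 0.64 in the fit with no filter did not pass (adjusted p = 0.071).

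Among the SNARE proteins, the probe sets for 1 gene did not always give the same call. Snap25, which anchors in the cell membrane through lipid groups, had 362.4, 325.5 and 232.9 in SPI, 330.9, 441.8 and 414.1 in WPH and 175.5, 275.0 and 151.8 in CAS by AB003991_at. Its partner AB003991_g_at had 156.9, 137.0 and 159.1 in SPI, 230.9, 308.1 and 321.1 in WPH and 133.6, 175.5 and 92.9 in CAS. By both, WPH lay above CAS and rose, 1.97-fold (log2 change 1.02 ± 0.24, adjusted p = 0.00545) and 2.14-fold (1.13 ± 0.24, adjusted p = 0.00283), whereas SPI overlapped CAS (1.53-fold, adjusted p = 0.0826, and 1.13-fold, adjusted p = 0.583). The second CAS array was the highest of its diet on both. Without it SPI rose over CAS by AB003991_at (adjusted p = 0.0171), as it did without the third SPI array (adjusted p = 0.0461). Between SPI and WPH, Snap25 fell by AB003991_g_at (log2 change -0.91 ± 0.24, adjusted p = 0.0202), with an adjusted p of 0.05 to 0.0704 when SPI 1, SPI 2, WPH 2 or WPH 3 was left out, and not by AB003991_at (-0.38 ± 0.24, adjusted p = 0.31). The other 2 probe sets for Snap25 were dim with overlapping diets. AB003992_s_at spanned 33.2 to 64.9 in SPI, 10.6 to 124.8 in WPH and 5.2 to 33.5 in CAS, and U56261_s_at spanned 40.0 to 78.6, 10.4 to 84.1 and 30.6 to 66.5 in the same diets. U56261_s_at was the only 1 of the 16 with a negative log2 change in WPH against CAS (-0.29 ± 0.72, adjusted p = 0.826).

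Stx1a, the syntaxin of the release site, rose in WPH by both of its probe sets. D10392_i_at had 516.6, 604.1 and 579.1 in SPI, 862.7, 866.7 and 730.9 in WPH and 521.7, 508.7 and 520.9 in CAS. WPH stood clear of the other 2 diets, which overlapped. The ratio of WPH to CAS was 1.59 (log2 change 0.66 ± 0.11, adjusted p = 0.000693) and SPI fell relative to WPH (-0.53 ± 0.11, adjusted p = 0.00663). D12519_s_at had 202.6, 213.3 and 185.3 in SPI, 288.7, 258.9 and 270.4 in WPH and 159.4, 150.5 and 218.0 in CAS, with WPH 1.55-fold of CAS (0.65 ± 0.17, adjusted p = 0.0108) and SPI against WPH not past the test (-0.45 ± 0.17, adjusted p = 0.0983). SPI was 1.10-fold and 1.14-fold of CAS by the 2 probe sets (adjusted p = 0.476 and 0.455).

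Vamp2, the SNARE of the vesicle, was the exception. M24105_at had 1042.8, 1256.9 and 1300.8 in SPI, 1156.1, 1601.2 and 1436.2 in WPH and 1099.8, 1042.9 and 1431.8 in CAS. All 3 diets overlapped, and WPH against CAS (1.17-fold, log2 change 0.23 ± 0.16, adjusted p = 0.271) and SPI against CAS (1.01-fold, adjusted p = 0.955) did not pass. The other probe set, rc_AI101103_s_at, had 568.7, 514.7 and 426.7 in SPI, 524.2, 708.0 and 989.4 in WPH and 495.8, 416.1 and 462.4 in CAS. Here WPH lay above CAS, with the third WPH array the highest, and rose 1.62-fold (0.65 ± 0.21, adjusted p = 0.0264). That call was lost when CAS 2, CAS 3, WPH 2 or WPH 3 was left out (adjusted p = 0.0607 to 0.0916). SPI against WPH (-0.52 ± 0.21, adjusted p = 0.104) passed only without WPH 1 (adjusted p = 0.0172). The difference between the 2 probe sets was not tested.

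Rab3a (X06889cds_at), the small GTPase that brings vesicles to the active zone, had 130.2, 130.4 and 108.3 in SPI, 181.9, 102.8 and 161.3 in WPH and 81.7, 76.3 and 99.0 in CAS. Every CAS array was dim and below every array of SPI and WPH, which overlapped each other. WPH was at least 1.49-fold and SPI at least 1.23-fold of CAS, with each CAS signal set to 100. WPH passed (log2 change 0.76 ± 0.26, adjusted p = 0.0381) and SPI did not (0.53 ± 0.26, adjusted p = 0.187). The WPH call was lost when CAS 1, CAS 2, SPI 1, WPH 1 or WPH 3 was left out (adjusted p = 0.053 to 0.139) and with no filter on dim probe sets (adjusted p = 0.0567).

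**Figure D2:**
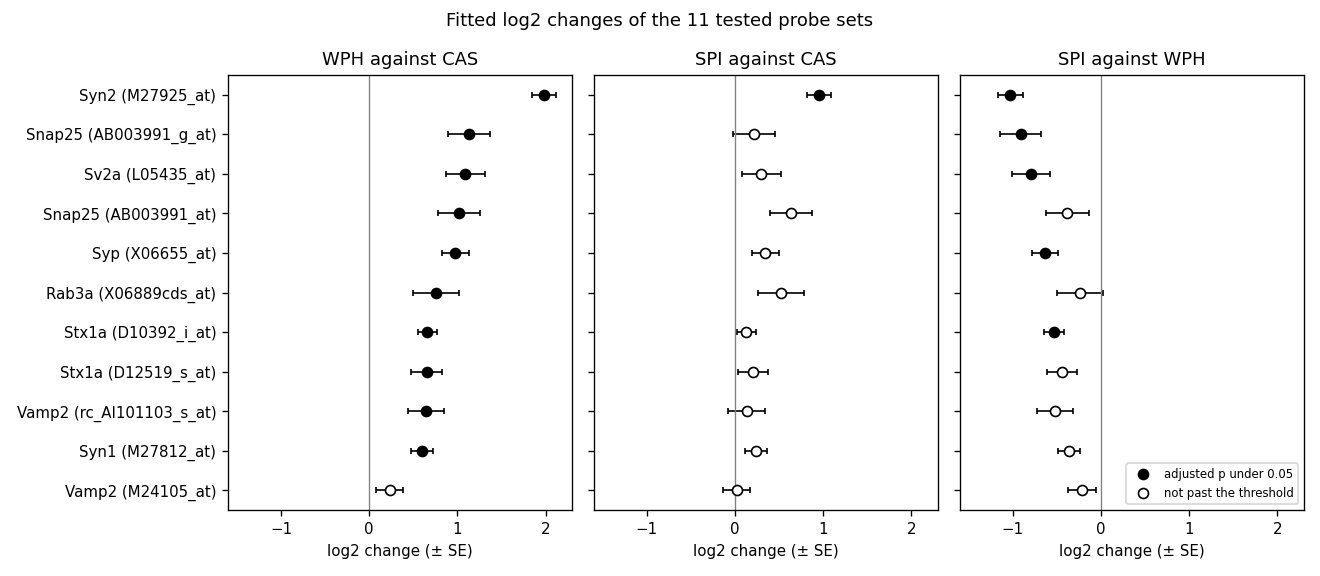
Fitted log2 changes (horizontal axis, ± SE, 3 arrays per diet) of the 11 tested probe sets in 3 panels, 1 per pair of diets; filled points had an adjusted p under 0.05. Of the 11, 10 are filled to the right of 0 in WPH against CAS, only Syn2 is filled in SPI against CAS, and 5 are filled to the left of 0 in SPI against WPH.

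Counted over the members, 10 of 11 tested probe sets were higher in WPH than in CAS, where 20.9% of all tested probe sets were, and 0 were lower, where 17.9% were (0 at an unadjusted limma p under 0.05 and 0 by the t-test named in the methods). Of the 11, 4 were higher by at least 2-fold in the fit (Syn2, both Snap25 probe sets and Sv2a), against 5.53% of all. Arrays of WPH lay wholly above those of CAS for 13 of the 16, against 21.7% of all 8740 probe sets. In SPI against CAS 1 of 11 was higher (12.0% of all) and 0 were lower (10.2% of all, with 0 at an unadjusted limma p under 0.05 and 0 by that t-test), 0 of the 11 being higher by at least 2-fold (2.39% of all), and arrays of SPI lay wholly above those of CAS for 5 of 16 (15.2% of all). The 1 in 11 was near the background, and 3 of 11 were higher at an unadjusted limma p under 0.05. In SPI against WPH 5 of 11 were lower (9.83% of all) and 0 higher (10.1% of all, with 0 at an unadjusted limma p under 0.05 and 0 by that t-test), 1 by at least 2-fold (1.03% of all), and arrays of SPI lay wholly below those of WPH for 9 of 16 (16.2% of all). The median log2 change over all 16 was 1.00 between WPH and CAS, 0.32 between SPI and CAS and -0.53 between SPI and WPH, and over all 8740 probe sets it was 0.08, 0.00 and -0.09. The 3 comparisons share arrays and are not independent of each other.

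Arrays fell into 3 rounds on 1 day by the time that the fluidics settings record under a hybridization heading, here called wash rounds because the same settings list the washes. The first round held the 3 CAS arrays and WPH 2, the second held WPH 1, WPH 3, SPI 1 and SPI 2, and the third SPI 3, so SPI and CAS shared no round. A block on wash round therefore sets WPH against CAS through the single array WPH 2, and SPI against CAS only by way of WPH. With it, 6 of the 11 were higher in WPH than in CAS, where 13.0% of all tested probe sets were (Syn2, Syp, both Snap25 probe sets, Stx1a by D10392_i_at and Sv2a), and all 11 kept a positive log2 change. That of Rab3a was then 0.27 (adjusted p = 0.59), and in SPI against CAS Rab3a turned to -0.12 (adjusted p = 0.916). The block left 0 higher in SPI than in CAS (1.78% of all, Syn2 log2 change 1.08, adjusted p = 0.0626) and 1 lower in SPI than in WPH (3.71% of all), Syn2 (adjusted p = 0.00912). The ratio of the 3′ to the 5′ probe set of β-actin, a measure of how complete the labelled RNA was, was 2.14 to 2.36 in SPI, 2.53 to 3.50 in WPH and 1.83 to 1.88 in CAS, while that of GAPDH averaged 1.56 ± 0.08, 1.63 ± 0.07 and 1.56 ± 0.20 in those diets (SD over 3 arrays). The part of the β-actin ratio in these results was not tested.

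Other genes of the vesicle cycle were taken in 5 lists, each gene by its brightest probe set. Of 134 genes, 95 were measured and 59 tested. In WPH relative to CAS, 17 rose (28.8%, against 20.9% of all tested probe sets) and 4 fell (6.78%, against 17.9%). In SPI relative to CAS, 6 rose (10.2%, against 12.0%) and 3 fell (5.08%, against 10.2%). In SPI relative to WPH, 8 fell (13.6%, against 9.83%) and 0 rose (against 10.1%, with 1 at an unadjusted limma p under 0.05 and 1 by the t-test of the methods). The median log2 change over the 95 was 0.18 in WPH against CAS. Counts for single lists are to be read against the same shares. Of the 17, Syt6 reached the minimum signal only through WPH and Rims1 only through SPI and WPH, so that their tests favour a difference from CAS. With wash round as a block the genes higher in WPH than in CAS numbered 10, and those higher in SPI than in CAS 0.

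Of the SNAREs and their partners, 1 of 14 tested genes was higher in WPH than in CAS and 1 was lower. Stx4, a syntaxin of cell membranes outside nerve endings as well, averaged 332.7 in SPI, 352.6 in WPH and 263.5 in CAS (WPH 1.34-fold of CAS, adjusted p = 0.0317). Gosr2, a SNARE of the Golgi, averaged 174.5 in SPI, 143.2 in WPH and 204.2 in CAS, and fell in WPH (log2 change -0.52 ± 0.16, adjusted p = 0.0274). Both calls were lost with wash round as a block (adjusted p = 0.146 for Stx4 and 0.297 for Gosr2). In SPI against CAS 0 of the 14 were higher (1 at an unadjusted limma p under 0.05 and 0 by the t-test of the methods) and 0 were lower (0 and 1 by the same measures).

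Of the calcium sensors and further vesicle proteins, 6 of 14 tested genes were higher in WPH than in CAS and 0 were lower (0 at an unadjusted limma p under 0.05 and 0 by the t-test of the methods). Sv2b, a relative of Sv2a, had 262.7, 285.8 and 291.9 in SPI, 544.4, 569.3 and 429.1 in WPH and 143.7, 266.3 and 185.4 in CAS. WPH was 2.59-fold of CAS (adjusted p = 0.000257) and clear of both other diets. Sv2c, another relative, named after its values were seen, averaged 138.5 in SPI, 124.5 in WPH and 141.7 in CAS. It did not pass in WPH against CAS (log2 change -0.42 ± 0.42, adjusted p = 0.476). Cadps, which primes dense-core vesicles for release, averaged 168.4 in SPI, 284.9 in WPH and 109.8 in CAS, and rose in both WPH (2.59-fold, adjusted p = 0.00018) and SPI (1.53-fold, adjusted p = 0.0389). Syt5, a synaptotagmin, had 436.6, 517.9 and 535.8 in SPI, 567.5, 542.7 and 411.7 in WPH and 339.6, 275.1 and 126.3 in CAS. SPI and WPH overlapped, both above CAS, and Syt5 rose in both, 2.01-fold in SPI (adjusted p = 0.0203) and 2.05-fold in WPH (adjusted p = 0.0103), and both calls were lost with wash round as a block (adjusted p = 0.329 in SPI and 0.0833 in WPH). Syt6, another synaptotagmin, reached 100 on 1 WPH array alone and was at least 1.07-fold of CAS in WPH (adjusted p = 0.0284, 0.252 with wash round as a block).

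Of the genes of the Rab3 cycle and the active zone, the patch of membrane where vesicles fuse, 6 of 13 were higher in WPH than in CAS and 1 was lower. Nrxn2, a neurexin that binds across the synapse, averaged 340.0 in SPI, 621.9 in WPH and 252.7 in CAS (WPH 2.46-fold of CAS, adjusted p = 0.000225). Rims1, the scaffold that Rab3 binds, had 136.3, 143.6 and 144.8 in SPI, 176.3, 192.2 and 216.6 in WPH and dim signals of 98.7, 87.8 and 79.2 in CAS. It was at least 1.95-fold of CAS in WPH (adjusted p = 6e-04) and at least 1.42-fold in SPI (adjusted p = 0.0246). Cacna1b, the pore of the N-type calcium channel, averaged 252.7 in SPI, 359.9 in WPH and 190.9 in CAS (WPH 1.89-fold of CAS, adjusted p = 0.000334), and Rab3b, a relative of Rab3a, averaged 450.0 in SPI, 607.9 in WPH and 355.0 in CAS (1.71-fold, adjusted p = 0.00169). The lower gene, named after its values were seen, was Cask, a scaffold kinase also found in epithelial junctions, with 431.3, 492.1 and 458.5 in SPI, 339.7, 286.4 and 389.8 in WPH and 454.1, 582.1 and 557.5 in CAS (log2 change -0.65 ± 0.15, adjusted p = 0.00436).

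Both tested genes of the transporter and synuclein list, of 7 measured, rose in SPI and in WPH relative to CAS. Slc18a3, which loads acetylcholine into vesicles, had 574.7, 759.1 and 579.8 in SPI, 915.9, 918.3 and 1116.2 in WPH and 473.6, 496.2 and 430.3 in CAS (WPH 2.11-fold of CAS, adjusted p = 9.44e-05; SPI 1.37-fold, adjusted p = 0.0424). Sncg, a synuclein of peripheral neurons, averaged 2459 in SPI, 4027 in WPH and 1420 in CAS (WPH 2.84-fold, adjusted p = 1.7e-06; SPI 1.73-fold, adjusted p = 0.00058). Neither gene's arrays overlapped between any pair of diets.

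Endocytosis genes, which retrieve vesicle membrane after release, went both ways, with 2 of 16 higher and 2 lower in WPH than in CAS. Dnm1, the neuronal dynamin that pinches vesicles off, had 620.4, 739.9 and 638.2 in SPI, 998.2, 1059.6 and 981.2 in WPH and 419.5, 304.7 and 419.3 in CAS (WPH 2.66-fold of CAS, adjusted p = 1.15e-05; SPI 1.75-fold, adjusted p = 0.00165). Bin1, an amphiphysin also abundant in muscle, averaged 1145 in SPI, 1585 in WPH and 954.9 in CAS (WPH 1.66-fold, adjusted p = 7.14e-05). The falling genes were Synj2, a lipid phosphatase, at 421.0 in SPI, 415.3 in WPH and 793.5 in CAS (log2 change -0.93 ± 0.15 in WPH, adjusted p = 0.000508), and Pacsin2, a membrane-bending protein of many tissues, at 301.5 in SPI, 241.4 in WPH and 452.5 in CAS (-0.96 ± 0.24, adjusted p = 0.00728, and 0.272 with wash round as a block). Clathrin light and heavy chains (Clta, Cltb and Cltc) and the 4 adaptor subunits tested (Ap2a2, Ap2b1, Ap2m1 and Ap2s1) were named after their values were seen. None passed in WPH against CAS (adjusted p of 0.0585 to 0.884). In SPI against CAS 1 of the 16, Dnm1, was higher and 3 were lower, against 12.0% and 10.2% of all tested probe sets. The lower were Synj2 (log2 change -0.90 ± 0.15, adjusted p = 0.00144), Dnm2 (-0.57 ± 0.18, adjusted p = 0.0412) and Clta (-0.32 ± 0.10, adjusted p = 0.0416). With wash round as a block these log2 changes were -1.19, -0.66 and -0.16, and all 3 calls were lost (adjusted p = 0.0599, 0.365 and 0.748).

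**Figure D3:**
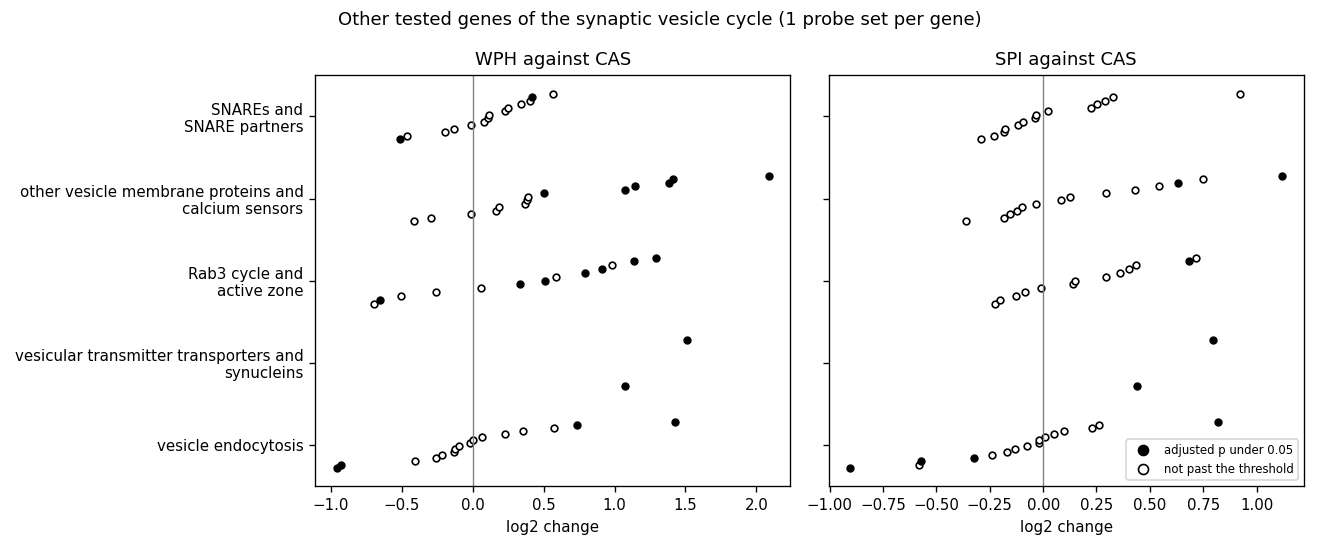
Fitted log2 change (horizontal axis) of the 59 other tested genes of the vesicle cycle in WPH against CAS and SPI against CAS, 1 point per gene in 5 lists down the page; filled points had an adjusted p under 0.05. In WPH against CAS 17 genes are filled to the right of 0 and 4 to the left, and in SPI against CAS 6 and 3.

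RNA came from pieces of proximal colon with all their layers, so fewer cells of a type and less RNA per cell cannot be told apart. Marker lists of several cell types moved with the diets. Non-synaptic markers of enteric neurons (23 of 29 measured, of which Chat, Dbh, Nefh and Nos1 averaged under 100 in every diet) had a summed signal of 14530 to 15530 in SPI, 22590 to 25340 in WPH and 9975 to 10100 in CAS, and 16 of 19 tested rose in WPH relative to CAS and 13 in SPI, where 20.9% and 12.0% of all tested probe sets did. Thy1, a surface protein of neurons and of some immune cells, averaged 2210, 4659 and 1461 in SPI, WPH and CAS, Uchl1 (PGP9.5) averaged 2253, 3553 and 1054, and Prph, an intermediate filament of peripheral neurons, averaged 1651, 2696 and 955.5. Th, Gal and Vip were named after their values were seen. Th went the other way, at 178.8, 235.1 and 292.5, without passing (adjusted p = 0.0598 in SPI and 0.256 in WPH). Gal (846.8, 667.6 and 525.9) and Vip (229.3, 210.7 and 119.7) were highest in SPI. Transcripts listed as markers of enteric neurons were thus present in the labelled tissue, though not all are particular to nerve cells and the transmitter enzymes Chat and Nos1 were dim.

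Smooth muscle markers (12 of 15 measured, led by Actg2, Tpm1 and Myh11) summed to 180700 to 183400 in SPI, 240000 to 271600 in WPH and 127300 to 128900 in CAS, and 11 of 12 rose in each of WPH and SPI relative to CAS. Among all tested probe sets, 20.9% rose in WPH and 12.0% in SPI. Glial markers (9 of 12 measured, Fabp7 and Mbp under 100) summed to 3812 to 4368 in SPI, 5386 to 6673 in WPH and 2979 to 3130 in CAS. Of 7 tested, 5 rose in WPH relative to CAS and 2 in SPI, to be read against the same shares (20.9% and 12.0%). Cryab, the brightest, averaged 1534 in SPI, 2140 in WPH and 1106 in CAS. Erbb3 went the other way, at 135.3, 145.9 and 208.6, without passing (adjusted p = 0.0715 in SPI and 0.0891 in WPH). Sox10 reached the minimum signal only through WPH, so that its test favours a difference from WPH. Epithelial markers (15 of 20 measured) ran the other way, with sums of 48860 to 51110 in SPI, 23310 to 25110 in WPH and 79940 to 86390 in CAS. Relative to CAS, 15 of 15 fell in WPH and 11 in SPI, where 17.9% and 10.2% of all tested probe sets did. Of these, Cdx1 reached the minimum signal only through CAS, so that its test favours a difference from CAS. Muc2, the main mucin of goblet cells, averaged 5532 in SPI, 1387 in WPH and 16610 in CAS. Lgals4, the brightest of the list, averaged 11430 in SPI, 7384 in WPH and 10680 in CAS. It fell in WPH (adjusted p = 9.15e-05) and did not pass in SPI (log2 change 0.10 ± 0.07, adjusted p = 0.349). Enteroendocrine markers (15 of 20 measured, Gast, Gip and Tph1 under 100) were split, with 5 of 12 higher and 5 lower in each of WPH and SPI. Among all tested probe sets, 20.9% were higher and 17.9% lower in WPH, and 12.0% and 10.2% in SPI. Their sums were 9216 to 9912 in SPI, 12630 to 13620 in WPH and 8921 to 9816 in CAS. Cpe, Sst, Scg2, Scg3 and Scg5 were higher in both, and Chgb, Gcg, Pyy and Cck lower in both, with Sct lower in WPH and Pcsk2 in SPI. Cpe, the brightest, averaged 5306 in SPI, 6517 in WPH and 4338 in CAS, whereas Pyy averaged 177.7, 152.2 and 694.1, so the sum hides the falls. Gcg and Cck reached the minimum signal only through CAS, so that their tests favour a difference from CAS. Adipocyte markers (6 of 8 measured, Plin1 under 100) summed to 9091 to 9583 in SPI, 12010 to 13610 in WPH and 5474 to 6508 in CAS, and leukocyte markers (13 of 16 measured, Cd2 and Itgam under 100) to 16990 to 17150 in SPI, 13530 to 14640 in WPH and 10120 to 11090 in CAS. In the adipocyte list 4 of 5 tested rose in each of WPH and SPI relative to CAS. Lep averaged 1855, 1824 and 1892 in SPI, WPH and CAS and did not pass (adjusted p = 0.859 in SPI and 0.716 in WPH). Lyz2, a lysozyme of macrophages, averaged 6692 in SPI, 3331 in WPH and 2412 in CAS, and without it the leukocyte sums were 10230 to 10440 in SPI, 10320 to 11140 in WPH and 7792 to 8560 in CAS. The part of these shifts in the vesicle gene results was not tested.

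**Figure D4:**
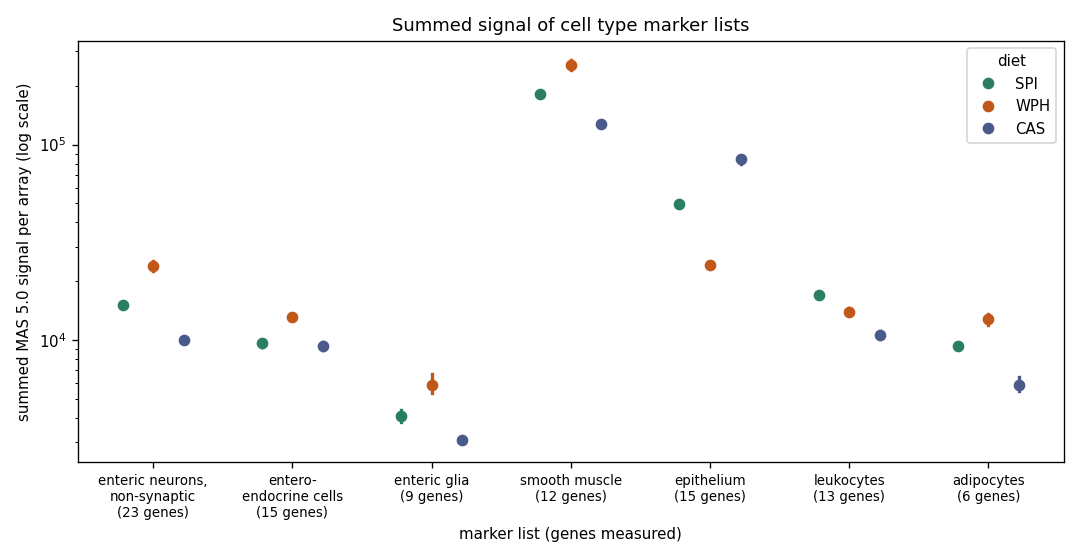
Summed MAS 5.0 signal per array (vertical axis, log scale) of 7 marker lists in SPI, WPH and CAS; points are the means of 3 arrays and bars run from the lowest to the highest array. Neuron, muscle and glia sums are highest in WPH and lowest in CAS, and the epithelial sum is lowest in WPH, at 23310 to 25110.

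The members varied together across the 9 arrays to different degrees. As a description over 9 arrays of 3 pools, the log2 signal of a member's brightest tested probe set had a Pearson r with the mean of the other members of 0.97 for Syn2, 0.96 for Syn1, 0.94 for Syp, 0.89 for Stx1a, 0.84 for Sv2a, 0.73 for Snap25, 0.70 for Rab3a and 0.41 for Vamp2. Among 3383 other genes, the 5 most like the mean of the members were Prickle2 (r = 0.993), a planar polarity protein, Slc29a1 (0.992), a nucleoside transporter, Ptprn (0.991), a protein of dense-core vesicle membranes, Hk1 (0.990), a hexokinase, and Calm2 (0.989), a calmodulin. Ptprn had 597.5, 691.6 and 595.6 in SPI, 874.7, 1067.4 and 1140.8 in WPH and 420.5, 434.2 and 429.6 in CAS, and Prickle2 averaged 879.1 in SPI, 1651 in WPH and 608.5 in CAS. An r of at least 0.9 was reached by 264 of the 3383 genes, so the pattern was shared widely on these arrays.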

How the data were processed

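Signals were measured on 9 Affymetrix RG_U34A arrays, 3 for each of SPI, WPH and CAS. The deposited values are probe set intensities on a linear scale, which the authors computed from the scanned images with MAS 5.0 and scaled to an average of 500 per array, with no detection calls. Precision was limited by the 3 arrays per diet. The authors' deposited instrument files hold other settings, of which only the chip type and the hybridization time listed under fluidics were read. Arrays within 30 minutes formed a wash round.

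Signals under 0.1 were set to 0.1 and changed to log2. The 59 control probe sets were left out, and 5606 of 8740 with a mean of at least 100 in at least 1 diet were fitted in 1 model of 3 diets with limma 3.58.1 (eBayes with trend) in R 4.3.3. Every adjusted p is limma's after Benjamini-Hochberg adjustment within a comparison, with a call under 0.05. Where all arrays of 1 diet were under 100, a fold is a lower bound with each such signal set to 100. The script was tested on simulated data. In the platform annotation 7018 probe sets had 1 gene symbol, 308 had several and 1473 had none.

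The members and lists were chosen with earlier results of these data known. All 9 members are named, with up to 4 genes of largest change per vesicle list, up to 3 brightest markers per marker list and the 5 genes most like the members. Alternatives were other floors, filters, scalings, variance priors, blocks and tests, and each array left out.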

Additional observations from a re-analysis of the deposited data

How the results depend on the processing

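No member changed direction in WPH against CAS or SPI against WPH under the alternatives run. In SPI against CAS, where the following were not called, the log2 change of Rab3a turned to -0.12 under the wash round block. With 1 array left out, the log2 change was -0.023 (without CAS 3) to 0.435 for Snap25 by AB003991_g_at and -0.071 (without CAS 2) to 0.158 for Vamp2 by M24105_at, which was also below 0 without CAS 1, SPI 2 or SPI 3. For WPH against CAS, 215 single-probe-set values kept their side of the threshold and 26 lost it. For SPI against CAS, 219 kept it with their direction, 1 lost it and 4 gained it, and for SPI against WPH, 215 kept it, 22 lost it and 4 gained it. Of the 10 members higher in WPH than in CAS, 6 remained in number with wash round as a block and 6 within the first wash round (there with Vamp2 by rc_AI101103_s_at and without Sv2a, adjusted p = 0.059), and leaving out 1 array gave 8 to 10. Both settings rest on the same single WPH array of that round, assumed to vary as the other diets do, and give the same log2 changes with a different spread. The comparisons within a wash round were chosen after seeing the data. The 17 vesicle-cycle genes higher in WPH became 10 with wash round as a block and 11 within the first round, and the 4 lower became 2 by the t-test of the methods after Benjamini-Hochberg adjustment and 4 to 7 with 1 array left out. For SPI against CAS, the 1 member higher became 2 with no filter, 0 with wash round as a block, 3 by that t-test at P under 0.05 and 1 to 2 with 1 array left out. The 6 vesicle-cycle genes higher in SPI became 3 with the replicate number as a block (replicate block), 0 with wash round as a block, 3 by the t-test after adjustment and 2 to 7 with 1 array left out. The 3 lower became 1 with no filter, with median centring, with no variance trend or by the adjusted t-test, 5 by the t-test at P under 0.05 and 1 to 3 with 1 array left out. With wash round as a block all 3 lost the call, and the 1 lower gene was a different one. It was Cacna1a, another calcium channel gene, named after its values were seen. Its log2 change was -2.47 with the block and -0.08 in the main fit (adjusted p = 0.93 in the main fit). For SPI against WPH, the 5 members lower became 1 with wash round as a block, 1 within the second round, 2 by the adjusted t-test and 3 to 6 with 1 array left out. The 8 vesicle-cycle genes lower became 1 with wash round as a block, 0 within the second round, 14 by the t-test at P under 0.05, 3 after adjustment and 5 to 10 with 1 array left out, and the 0 higher became 1 with a filter at 200, with median centring or by the unadjusted t-test, and 0 to 1 with 1 array left out. The causes were not tested. The replicate block took the call from Rab3a (adjusted p = 0.0574) and Vamp2 by rc_AI101103_s_at (0.0503) in WPH against CAS and from Sv2a (0.0596) in SPI against WPH. Deviations of arrays of the same number correlated at -0.28 to 0.24 in 9 pairs, and those of other pairs at -0.35 to 0.29 in 18. These ranges overlap and give no sign of pairing by number, but cannot show that nothing else is shared. CAS 2 with WPH 2 and SPI 1 with WPH 1 also shared a wash round. Fewer arrays remain in the comparisons within a round. Signal near background limits Syt1, Rab3a and 4 probe sets for Syn2 and Snap25, and 3 arrays of 1 pool per diet give no spread between rats.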
